A study of Mus musculus with 20 samples.

Results

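Macrophages sorted from MC38 tumours of mice given an antibody to PD-L1 were compared with macrophages from control tumours, 5 libraries in each group. These 10 libraries were chosen by their titles from a series of 20, the other 10 being monocytes from the same kinds of tumour. MC38 is a transplanted mouse colon carcinoma line. The control group is labelled as control with no agent named, the treated group received anti-PD-L1, and RNA was taken 7 days after treatment began in both. The sources used here give no genotype, strain, sex or age of the mice, no antibody clone and no markers by which cells were sorted. Nor do they state that each library is its own animal, and the p-values therefore rest on a spread among samples that could be technical. All control libraries carry lower sample numbers than all treated libraries, and treatment cannot be told apart from anything that follows that order. Libraries are numbered 1 to 5 within a group in order of deposit, which only names them.

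PD-L1, encoded by Cd274, is a surface ligand that tumour cells and macrophages show to the inhibitory receptor PD-1 of T cells. T cells and natural killer cells that are active in a tumour release interferon-gamma, which acts on macrophages through a receptor coupled to Jak kinases. Tumour macrophages take up debris and lipid, remodel matrix, attract other leukocytes and present antigen, and fibroblasts that lie beside them make most of the collagen of a tumour.

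The promoters of 4 genes described below are shown first, because they carry short motifs whose frequency was counted among the genes that changed. Each line gives the 250 bases before the annotated start of the gene, from RefSeq on GRCm38.p6, with the motif in capitals. Gpr18 (chr14:121915889-121916138, minus strand) holds an interferon-stimulated response element, searched on both strands as GAAA, any 2 bases and GAAA, and Mmp13 (chr9:7272264-7272513, plus strand) holds that motif on its other strand and an AP-1 site, searched as TGANTCA, which reads the same on both strands. Hmgcs1 (chr13:119690101-119690350, plus strand) holds the letters TCACNCCAC of a shortened sterol regulatory element, and Asns (chr6:7693210-7693459, minus strand) holds the letters TGATGNAA of a shortened amino acid response element.
Gpr18: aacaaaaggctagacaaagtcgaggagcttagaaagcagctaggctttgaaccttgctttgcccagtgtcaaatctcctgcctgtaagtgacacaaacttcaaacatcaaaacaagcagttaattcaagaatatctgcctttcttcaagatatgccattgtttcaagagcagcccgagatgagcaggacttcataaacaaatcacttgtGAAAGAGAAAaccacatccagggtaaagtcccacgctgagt
Mmp13: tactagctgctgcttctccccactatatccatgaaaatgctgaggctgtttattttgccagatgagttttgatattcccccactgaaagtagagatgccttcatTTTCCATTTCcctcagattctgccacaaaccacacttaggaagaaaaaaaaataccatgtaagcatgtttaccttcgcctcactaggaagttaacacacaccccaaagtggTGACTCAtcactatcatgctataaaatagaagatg
Hmgcs1: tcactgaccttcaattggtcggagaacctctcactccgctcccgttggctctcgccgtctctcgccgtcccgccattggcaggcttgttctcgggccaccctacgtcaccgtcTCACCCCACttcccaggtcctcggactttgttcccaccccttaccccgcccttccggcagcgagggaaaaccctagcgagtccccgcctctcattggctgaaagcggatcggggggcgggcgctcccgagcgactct
Asns: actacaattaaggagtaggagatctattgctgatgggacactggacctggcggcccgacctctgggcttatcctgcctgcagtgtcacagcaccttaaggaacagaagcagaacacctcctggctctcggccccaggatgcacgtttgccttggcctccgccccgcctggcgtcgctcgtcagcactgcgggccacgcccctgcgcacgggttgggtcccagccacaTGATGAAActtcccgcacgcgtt

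The search covered the 11251 tested genes that have an entry in the promoter table. The interferon-stimulated response element was found in 380 of them (3.38%), in 27 of the 198 genes with an entry that rose after anti-PD-L1 (13.6%), and in 10 of the 334 that fell (2.99%). Outside the interferon and antigen presentation lists used here it was found in 19 of 184 genes that rose (10.3%). The 19 were Alg1, Apol7c, BC147527, Calhm6, Ccm2, Cyp4v3, Fcgr4, Gm12185, Gm12250, Gm5150, Gpr18, Klhl22, Mmp13, Ncf1, Pilrb1, Pilrb2, Sipa1l1, Sirpb1a and Slamf8. These lists are short, and whether genes outside them respond to interferon was not tested. The gamma-activated site, searched as TTCNNNGAA, was found in 7.35% of all promoters, 11.6% of those of genes that rose and 6.89% of those of genes that fell. For the AP-1 site these shares were 5.94%, 7.07% and 8.68%. The shortened sterol element was found in 135 promoters (1.2%), in 0 of genes that rose and in 7 of genes that fell (2.1%), and the shortened amino acid element in 2.6%, 4.04% and 1.8%. Of 18 promoters of the sterol and fatty acid synthesis list 1 held the sterol element (5.56%), that of Hmgcs1. A match describes the letters of the window and is neither a binding site nor a cause of a change.

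Depth was even, from 30191509 to 36514133 counts per macrophage library, and 3 counts equal 0.0994 CPM (counts scaled to library size) in the shallowest. The sorted cells carried macrophage markers in every library. On the deposited scale per length (nRPKM), Adgre1, which encodes F4/80, lay between 220.3 and 438 in macrophages and between 72.7 and 123 in monocytes. Mertk, a receptor for apoptotic cells, lay between 12.9 and 26.4 against 3.8 to 12.3, and Apoe between 5251 and 9701 against 1242 to 2845. Other members of the macrophage identity list did not separate the cell types. Csf1r lay between 423 and 601 against 412 to 729, and Cd68 between 298 and 478 against 254 to 466. Lyz2 lay between 3282 and 7266 against 5908 to 10968.

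Collagen RNA was also present, and it varied between libraries. Its measure here, called the collagen level, averages the log2 CPM of Col1a1, Col1a2 and Col3a1, which encode fibrillar collagen chains. This level was 5.02, 4.43, 5.12, 2.33 and 6.28 in control libraries 1 to 5 and 3.10, 4.21, 2.68, 2.45 and 2.36 in treated libraries 1 to 5. Control library 4 lay below all treated libraries, and the other 4 controls lay above all of them. The group means were 4.64 ± 1.45 and 2.96 ± 0.75 (SD, n = 5), a difference of -1.68 with a two-sided exact permutation p of 0.0635 over 252 splits, of which the smallest possible is 0.00794. Over a wider list of fibroblast and matrix genes the difference was -2.15, with an exact permutation p of 0.0317. In RNA from a sorted population, fewer cells of a type and less RNA per cell cannot be told apart.

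Anti-PD-L1 was followed by small rises of well expressed genes and by large falls of weakly expressed genes. Of 15390 genes tested with edgeR's quasi-likelihood test, 266 rose (1.73%) and 449 fell (2.92%) at a Benjamini-Hochberg adjusted p of 0.05. The genes that rose had a median log2 fold change of 0.57 and a median level of 6.02 log2 CPM, and 37 of them (13.9%) changed more than 2-fold. The genes that fell had a median log2 fold change of -2.48 and a median level of 0.81 log2 CPM, and 370 of them (82.4%) changed more than 2-fold. All 5 treated libraries lay above all 5 controls for 198 of the 266 and below them for 106 of the 449. Such separation was found in 4.11% of all genes in the upward and 2.83% in the downward direction.

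The number of calls rested on individual libraries. The total of 715 became 14 without treated library 4, 14 without control library 5, 19 without control library 1, 35 without treated library 1, 124 without treated library 3, 217 without treated library 5 and 350 without control library 3. It became 1415 without control library 2 and 1928 without control library 4. Monocyte libraries share the estimate of the spread: without a control monocyte library the total was 77 (library 1), 382 (library 2), 1077 (library 4) or 1565 (library 5), and without a treated one 407 (library 1), 1212 (library 3), 411 (library 4) or 394 (library 5). DESeq2 called 747 genes higher and 1131 lower, and limma-voom 148 and 43 (195 and 48 with neighbouring sample numbers of macrophages and monocytes as a block), so the share of rises among calls was 39.8% and 77.5% in DESeq2 and limma-voom without the block against 37.2% in edgeR. Of 102 called genes followed through the 20 fits that left out a library, 10 passed in all of them: Pecam1, Mmp13, Cd109, Tex14, Ank, Rnf135, Sirt7, Gpr18, F730016J06Rik and Ocstamp, the last chosen after its values were seen. The other 92 lost their call in at least 1 of these fits, and the 102 passed in a median of 14. None of the 102 changed direction in them, but they were chosen as called with all libraries, so this is no test of stability. Of the 10, F730016J06Rik had at most 8 counts in any macrophage library and passed the filter on low counts through monocyte libraries.

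With all libraries in the edgeR fit the rises were nearly the same size at equal collagen level, and most of the falls were not. In a fit with the collagen level as a covariate, a change was counted as held where it had the same sign, at least 0.5 of its size and an unadjusted p under 0.05. This was so for 254 of the 266 genes that rose (95.5%), whose median went from 0.57 to 0.51 over all 266. It was so for 110 of the 449 genes that fell (24.5%), and the median over all 449 went from -2.48 to -0.77. All 449 kept a negative sign. The 110 falls that held went from a median of -0.97 to -0.77, and the 339 that did not hold from -2.66 to the same -0.77. A fall that did not hold was therefore not smaller at equal collagen level than a fall that held. The slope on collagen was positive for 431 of the 449 and passed the test for 152, while 47.3% of all genes had a positive slope and 2.03% passed. The share of rises that held rested on 2 libraries. Without control library 4, the control of low collagen, 150 of 833 rises (18%) and 43 of 1095 falls (3.93%) held, and without treated library 2, the treated library highest in collagen, 177 of 335 rises (52.8%) and 51 of 567 falls (8.99%). In the other 18 fits that left out a library, 76.2% to 100% of the rises and 15.5% to 100% of the falls held. Shares of 100% for falls came from fits with few calls, such as 11 rises and 3 falls without treated library 4. The contrast also depended on the method. In limma-voom 148 of 148 rises and 41 of 43 falls held, and in DESeq2 509 of 747 and 173 of 1131. The held changes come from the same libraries as the first test and are no independent support for it.

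**Figure D1:**
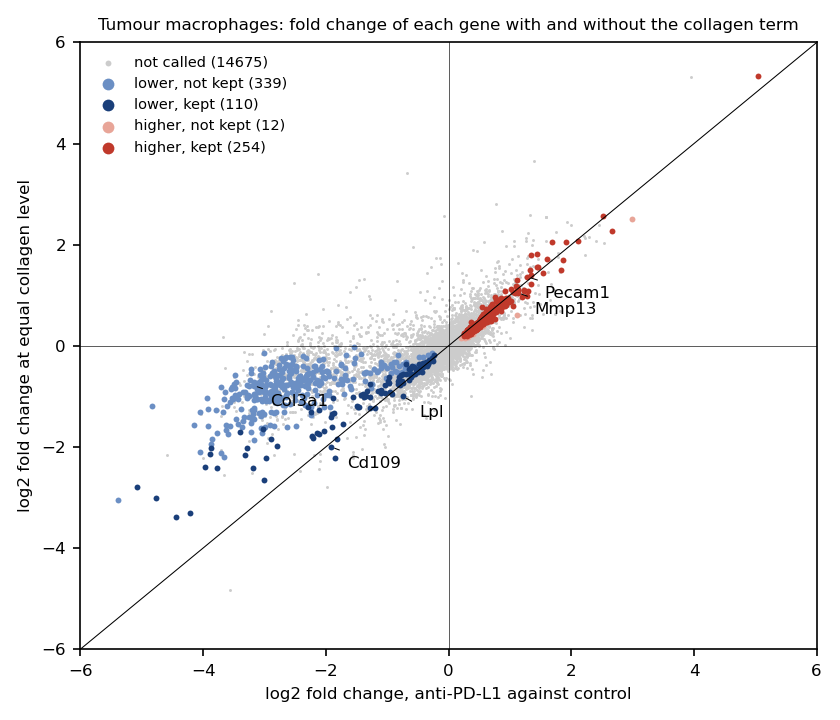
Log2 fold change of each of the 15390 tested genes in macrophages, anti-PD-L1 against control (horizontal axis), against the same at equal collagen level (vertical axis); the diagonal marks equal values. The 254 rises that held (red) lie near the diagonal, and the 339 falls that did not hold (light blue) lie above it.

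Control library 4 gave a direct view, since its collagen level of 2.33 was as low as those of the treated libraries. For the 266 genes that rose, this library lay below all 5 treated libraries in 255 and within their range in 11. Its median distance from the treated mean was -0.47 on the log2 scale, against -0.59 for the other 4 controls. For the 449 genes that fell, it lay above all treated libraries in 137, within their range in 302 and below them in 10, with a median distance of 0.24 against 2.39 for the other controls. Among the 110 falls that held, it lay above all treated libraries in 104. Over all genes tested it lay below the treated libraries in 2935 and above them in 3025. Since this library also took part in choosing the genes, these counts are a description.

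At equal collagen level 2 of 15390 genes (0.013%) passed the adjusted threshold in edgeR, 1 in each direction, and 964 (6.26%) had an unadjusted p under 0.05. They were Pecam1 and Cd109. DESeq2 called 13 higher and 2 lower in the same design. In a fit of the 10 macrophage libraries alone 0 genes passed, with log2 fold changes of 1.37 for Pecam1 and -1.99 for Cd109 at adjusted p = 0.251 and 0.118.

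Pecam1 (Entrez 18613, chr11:106654213-106715281) encodes an adhesion molecule of leukocytes and endothelium that binds itself on neighbouring cells. It was at 68, 66.7, 63.7, 50.5 and 43.3 CPM in control libraries 1 to 5 and at 172, 166, 109.8, 144 and 119 CPM in treated libraries 1 to 5. Every treated library exceeded every control. The log2 fold change was 1.28 (SE 0.15, edgeR adjusted p = 0.000593) and 1.37 at equal collagen level (95% interval 0.93 to 1.80, edgeR adjusted p = 0.0259). Defining markers of endothelium were low: Cdh5 lay between 1.29 and 2.79 CPM over the 10 libraries and Cldn5 between 0 and 0.298. Of 13 tested endothelial markers Eng rose and Egfl7 fell, 4 of the 13 had a positive log2 fold change, and the median was -0.91 (-0.47 at equal collagen level). The summed level of the endothelial list was 84.9 to 116 CPM in controls and 114 to 160.3 CPM after treatment, of which Eng alone made up 63.6 to 84 CPM and 89.8 to 121 CPM.

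Cd109 (Entrez 235505, chr9:78615546-78716260) encodes a membrane-anchored protein that binds TGF-beta and limits its signalling. Its level was low and even in controls, at 4.85, 4.13, 4.71, 4.7 and 4.88 CPM. The treated libraries 1 to 5 had 0.784, 1.01, 1.52, 1.69 and 1.14 CPM. No treated library came near the lowest control, and control library 4 was like the other controls. The log2 fold change was -1.92 (SE 0.22, edgeR adjusted p = 0.000593) and -2.00 at equal collagen level (95% interval -2.58 to -1.41, edgeR adjusted p = 0.0171).

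Other genes with small p-values had the same clear separation. Mmp13 (Entrez 17386, chr9:7272514-7283333), a secreted collagenase, was at 67, 57.3, 89.6, 80.5 and 78.4 CPM in controls and 168, 131, 161, 162 and 193 CPM after treatment. Its lowest treated library stood well above its highest control, with a log2 fold change of 1.13 (SE 0.19, edgeR adjusted p = 0.0178) and 1.05 at equal collagen level (95% interval 0.49 to 1.6). Gpr18, a G protein-coupled receptor of leukocytes, was at 11, 18, 20.7, 15.2 and 10.9 CPM in controls and 33.2, 33.9, 27.3, 23.9 and 26.1 CPM after treatment. Its groups did not overlap, and it rose by 0.93 (SE 0.15, edgeR adjusted p = 0.0172) and had 0.92 at equal collagen level. Ank, a membrane protein that exports pyrophosphate, was at 31.7, 23.9, 23.7, 22.3 and 35.7 CPM in controls and 12.7, 16.9, 12.6, 10.7 and 16.3 CPM after treatment. It fell by 0.99 on the log2 scale (SE 0.15, edgeR adjusted p = 0.0114), and had -0.70 at equal collagen level, again with no overlap.

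Further genes by the same rule were Rnf135, a ubiquitin ligase of the RIG-I pathway, Sirt7, a nuclear deacylase, and Tex14, a component of germ cell bridges. They rose by 0.59, 0.45 and 1.34 with SEs of 0.09, 0.07 and 0.20, and the values at equal collagen level were 0.54, 0.42 and 1.39. Trpm2, a calcium channel opened by ADP-ribose, and Ocstamp, a protein needed for fusion of osteoclasts, were named after their values were seen. They rose by 0.65 (SE 0.12) and 1.12 (SE 0.20), with 0.60 and 1.16 at equal collagen level. The gene model F730016J06Rik had 0 counts in all 5 controls and 1 to 8 counts in each treated library, 20 in all. Against a floor of 3 counts over the control group this is a ratio of 6.67, which takes the few treated counts as exact. Treated libraries had 0.0293 to 0.216 CPM, partly under the floor of 3 counts, and monocyte libraries of both treatments had 0.25 to 0.522 CPM. The gene model passed the filter on low counts through these monocyte libraries. Exons of Sirt7 overlap those of Mafg on the same strand, and the strand setting of the counting is not given, so reads of overlapping genes may be shared between them.

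**Figure D2:**
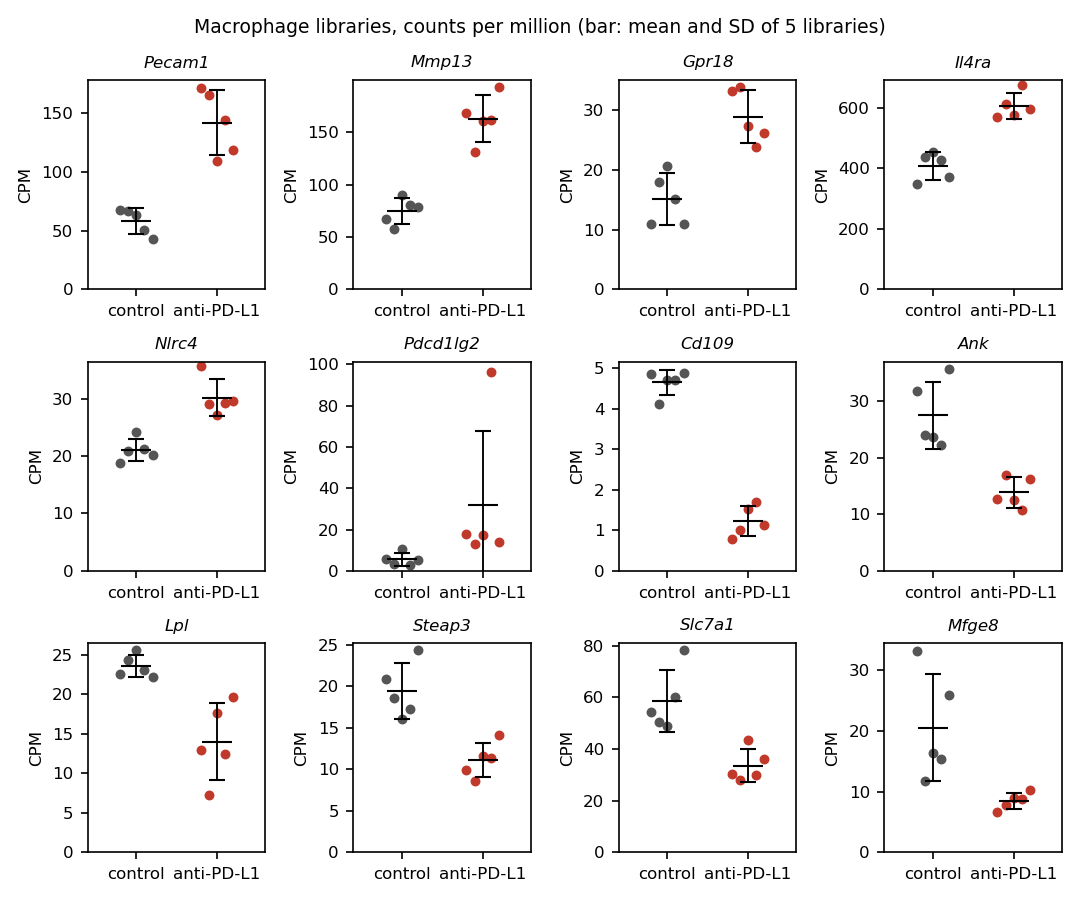
CPM of 12 genes in each macrophage library (points), 5 control and 5 anti-PD-L1, with the mean and SD of each group (bars). The upper row, Pecam1, Mmp13, Gpr18 and Il4ra, and Nlrc4 and Pdcd1lg2 are higher after treatment, and the other 6 are lower, with no overlap of the groups in any panel; the lower SD bar of treated Pdcd1lg2 is cut at 0.

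The 32 lists of genes for macrophage functions held 914 tested places. Members were called in 27 of them, with more rises than falls in 18 and more falls than rises in 6. Over all genes tested 1.73% rose and 2.92% fell, and the counts of each list below stand beside these shares. A single call in a list of this size is near them and says little about its function. The median log2 fold change over all genes was -0.01, and -0.02 at equal collagen level.

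**Figure D3:**
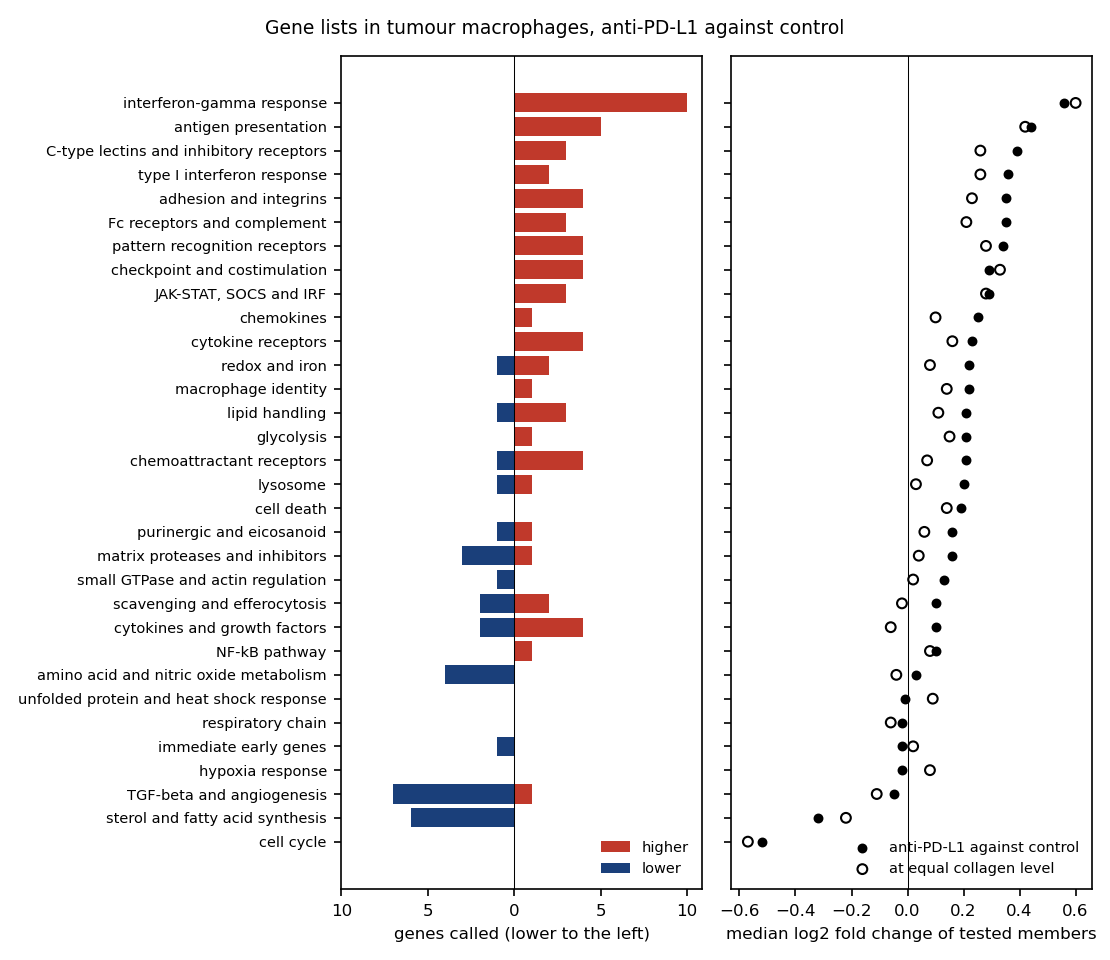
Number of genes called higher (red) and lower (blue) in each list at left, and the median log2 fold change of its tested members at right, anti-PD-L1 against control (filled) and at equal collagen level (open). The interferon-gamma list has the most rises, 10, and the TGF-beta and angiogenesis list the most falls, 7.

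Several adhesion molecules and receptors that guide leukocytes rose. Of 27 tested adhesion genes 4 rose and 0 fell, with a median of 0.35 (0.23 at equal collagen level), and all 4 held. Among them beside Pecam1 were Itgb7, the chain of gut-homing integrins, and Itgb2, the common chain of the leukocyte integrins. Itgb2 was at 783 to 1123 CPM in controls and 1303 to 1772 CPM after treatment, a log2 fold change of 0.66 (SE 0.17, edgeR adjusted p = 0.0407), and 0.49 at equal collagen level. For Itgb7 the log2 fold change was 0.78 (SE 0.18), and 0.68 at equal collagen level, with controls at 101 to 181 and treated libraries at 165 to 287 CPM.

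Of 25 tested receptors for chemoattractants 4 rose and 1 fell, with a median of 0.21 (0.07 at equal collagen level). Fpr1, a receptor for formylated peptides, was at 8.99, 20.1, 24.4, 14 and 8.11 CPM in controls and 53.2, 63, 28.5, 25.4 and 38.2 CPM after treatment. The lowest treated library exceeded the highest control by little, while the means differed by a log2 fold change of 1.46 (SE 0.32, edgeR adjusted p = 0.0386), and 1.57 at equal collagen level. Its relative Fpr2 rose by 1.10 (SE 0.26), Ltb4r1, the leukotriene B4 receptor, by 0.88 (SE 0.23), and Gpr35, a G protein-coupled receptor, by 0.49 (SE 0.11). Fpr1 and Fpr2 are close in sequence, and counts of uniquely aligned reads may miss some of theirs. Ackr3, a scavenging receptor for Cxcl12, fell by 1.40 on the log2 scale (SE 0.31) and had -0.96 at equal collagen level. Among 23 chemokines Ccl5 rose, by 1.20 (SE 0.29, edgeR adjusted p = 0.0397), with its controls at 47.1 to 124 and its treated libraries at 123 to 335 CPM, ranges that just overlap.

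Receptors for cytokines rose in 4 of 30 and fell in 0, with a median of 0.23 (0.16 at equal collagen level). Il4ra, the receptor chain for interleukins 4 and 13, was at 349, 437, 455, 428 and 373 CPM in controls and 571, 612, 576, 676 and 595 CPM after treatment. The groups were far apart for so small a fold, 0.57 on the log2 scale (SE 0.12, edgeR adjusted p = 0.0356), and 0.50 at equal collagen level. Il2rg, the chain shared by several interleukin receptors, rose by 0.61 (SE 0.14), Acvrl1, a receptor for BMP9, by 0.59 (SE 0.13), and Csf3r, the G-CSF receptor, by 0.64 (SE 0.17). Of 36 cytokines and growth factors 4 rose and 2 fell, with a median of 0.10 (-0.06 at equal collagen level). Those that rose, all held, were Ebi3 and Il27, the subunits of interleukin-27, Il18bp, an inhibitor of interleukin-18, and Il16. Exons of Il18bp and Il16 overlap protein-coding genes on the other strand. Ebi3 rose by 0.45 (SE 0.09), from 34.7 to 50.1 CPM over the controls to 53 to 67.5 CPM over the treated libraries, and Il16 by 0.56 (SE 0.13).

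Sensors of microbial products and danger rose in 4 of 25 and fell in 0, with a median of 0.34 (0.28 at equal collagen level). Nlrc4, which assembles an inflammasome, was at 18.7, 20.9, 24.1, 21.3 and 20.2 CPM in controls and 35.6, 29, 27.1, 29.2 and 29.6 CPM after treatment. The groups did not overlap, and the log2 fold change was 0.52 (SE 0.11, edgeR adjusted p = 0.0396), and 0.51 at equal collagen level. Nod1, a sensor of peptidoglycan, rose by 0.97 (SE 0.27), Zbp1, a sensor of Z-form nucleic acid, by 0.57 (SE 0.15), and Tlr4, the endotoxin receptor, by 0.34 (SE 0.09).

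Lectins and paired receptors rose in 3 of 33 and fell in 0, with a median of 0.39 (0.26 at equal collagen level). Pilrb1, an activating receptor, lay between 13.2 and 17.2 CPM in controls and between 23.6 and 28.1 CPM after treatment (log2 fold change 0.71, SE 0.13, edgeR adjusted p = 0.0272). Pirb, an inhibitory receptor for MHC class I, rose by 0.67 (SE 0.16). Tarm1, a receptor of myeloid cells, rose by 1.35 (SE 0.30) and reached 0.98 without treated library 4, where it did not pass (edgeR adjusted p = 0.0794). That fit had 14 calls in all. Pilrb1 and Pirb belong to families of near-identical genes, so their counts are uncertain.

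Fc receptors and complement rose in 3 of 23 and fell in 0, with a median of 0.35 (0.21 at equal collagen level). C3, the central complement protein, was at 260.2, 205, 345, 232 and 208 CPM in controls and 554, 412, 417, 1132 and 418 CPM after treatment. Treated library 4 stood highest, and without it the log2 fold change went from 1.23 (SE 0.26) to 0.90 and did not pass (edgeR adjusted p = 0.0684), in a fit with 14 calls in all. Cfb, which forms the alternative pathway convertase with C3, rose by 0.94 (SE 0.21), from 374 to 648 CPM over the controls to 792 to 1265 CPM over the treated libraries. Fcgr4, an activating receptor for immunoglobulin G, rose by 0.88 (SE 0.20) and had 0.92 at equal collagen level. Exons of Cfb overlap another gene model on the same strand.

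Ligands and receptors of the checkpoint and costimulation list rose in 4 of 24 and fell in 0, with a median of 0.29 (0.33 at equal collagen level), and all 4 held. Vsir, which encodes the inhibitory ligand VISTA, lay between 435 and 561 CPM in controls and between 679.7 and 778 CPM after treatment (log2 fold change 0.53, SE 0.11, edgeR adjusted p = 0.0356). Slamf8, a receptor that restrains the phagocyte oxidase, rose by 0.89 (SE 0.21). Pdcd1lg2, which encodes PD-L2, was at 5.85, 3.11, 10.5, 2.85 and 5.44 CPM in controls and 17.8, 13.2, 17.6, 96.4 and 14.1 CPM after treatment. Treated library 4 alone stood far above the rest, and without it the log2 fold change went from 2.52 (SE 0.54) to 1.56. It did not pass there (edgeR adjusted p = 0.0794), in a fit with 14 calls in all. Cd274 had 0.91 (SE 0.24), and 0.85 at equal collagen level.

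The interferon-gamma, type I interferon and antigen presentation lists are given for their collagen values. Of 34 tested interferon-gamma genes 10 rose and all 10 held, and the median was 0.56, and 0.60 at equal collagen level. For the type I list 2 of 32 rose and held, with medians of 0.36 and 0.26, and for antigen presentation 5 of 28, with 0.44 and 0.42. Jak3, which carries common-chain cytokine signals, and Socs1, a feedback inhibitor of Jak kinases, rose by 0.33 (SE 0.09) and 0.99 (SE 0.27), and both held. Ikbke, a kinase of the interferon and NF-kB pathways, rose by 0.67 (SE 0.17) and was the called gene of 26 in the NF-kB list. T cell and natural killer cell markers stood beside these rises: 0 of 18 passed, their median was 0.37 (0.01 at equal collagen level), and their summed level was 48.2 to 112 CPM in controls and 95.4 to 139.6 CPM after treatment. The most abundant, Klrk1, lay between 32.3 and 84 CPM and between 60.1 and 103 CPM, and Cd3e between 0.0922 and 1.2 CPM over all 10 libraries. The part of these cells in the rises was not tested.

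Metabolic and phagocytic genes went both ways. In the lipid handling list 3 of 29 rose and 1 fell, with a median of 0.21 (0.11 at equal collagen level). Nr1h3, the sterol-sensing receptor LXR-alpha, was at 15.8, 22.8, 21.7, 19.9 and 14.4 CPM in controls and 39.4, 31.3, 24.9, 37.1 and 38.3 CPM after treatment. Its groups did not overlap, with a log2 fold change of 0.85 (SE 0.19, edgeR adjusted p = 0.0391), and 0.70 at equal collagen level. The phospholipases Pla2g15 and Pla2g7 rose by 0.43 (SE 0.11) and 0.76 (SE 0.19). Lpl, which releases fatty acids from lipoproteins, was at 22.6, 24.4, 25.6, 23.1 and 22.2 CPM in controls and 13, 7.31, 17.6, 12.5 and 19.7 CPM after treatment. All treated libraries were lower, and the log2 fold change of -0.75 (SE 0.18, edgeR adjusted p = 0.04) became -1.0 at equal collagen level (95% interval -1.51 to -0.49).

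Genes of sterol and fatty acid synthesis had negative log2 fold changes throughout. Of 28 tested members 6 fell and 0 rose, 0 had a positive log2 fold change, and the median was -0.32 (-0.22 at equal collagen level). Sqle, the squalene epoxidase, was at 43.5, 44.5, 30.6, 36.1 and 51.5 CPM in controls and 28, 21.7, 31.6, 22.9 and 29.3 CPM after treatment, so that its groups overlapped in 1 control and 1 treated library. Sqle and Hmgcs1, a synthase of the mevalonate pathway, fell (log2 fold changes -0.63, SE 0.16, and -0.40, SE 0.11) and held, with -0.55 and -0.37. The desaturases Scd1 and Scd2 and the elongase Elovl6 fell (-2.75, SE 0.70, -0.93, SE 0.23, and -0.81, SE 0.23) and did not hold, with -1.0, -0.41 and -0.40 at equal collagen level. Scd1 was at 5.27 CPM in control library 4 and at 9.49 to 50.5 CPM in the other controls, against 2.64 to 8.02 CPM after treatment.

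Of 27 tested genes of amino acid and nitric oxide metabolism 4 fell and 0 rose, with a median of 0.03 (-0.04 at equal collagen level). Slc7a1, a transporter of arginine and lysine, was at 54.2, 50.6, 49, 60.1 and 78.5 CPM in controls and 30.5, 28, 43.4, 29.9 and 36.3 CPM after treatment. Slc7a5, a transporter of large neutral amino acids, was at 83.9, 47.6, 53.9, 54.9 and 86.9 CPM and at 25.9, 31.5, 36.1, 23.2 and 30.9 CPM. The groups did not overlap for either gene. Both fell, with log2 fold changes of -0.80 (SE 0.16) and -1.15 (SE 0.23), each at an edgeR adjusted p of 0.0356, and held with -0.77 and -0.89. Asns, the asparagine synthetase, was at 72.7, 16.7, 36.9, 9.11 and 48.8 CPM in controls and 8.51, 15.6, 5.89, 6.18 and 7.15 CPM after treatment. Control library 4 lay within the treated range, and the log2 fold change of -2.09 (SE 0.53) was -0.74 at equal collagen level, with an interval from -1.80 to 0.32. Azin1, which protects ornithine decarboxylase from breakdown, fell by 0.29 (SE 0.08) and did not hold.

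In the redox and iron list of 29 tested genes 2 rose and 1 fell. Steap3, an endosomal iron reductase, was at 20.9, 18.6, 16, 17.2 and 24.4 CPM in controls and 9.95, 8.59, 11.6, 11.3 and 14.1 CPM after treatment. It fell without overlap, with a log2 fold change of -0.80 (SE 0.16, edgeR adjusted p = 0.0356), and -0.76 at equal collagen level. Slc11a1, which moves iron out of phagosomes, rose by 0.58 (SE 0.16) and held, and Ncf1, a subunit of the phagocyte oxidase, rose by 0.32 (SE 0.09) and did not. Of 28 scavenging genes 2 rose and 2 fell. Tgm2, a cross-linking enzyme that aids uptake of dead cells, rose by 0.83 (SE 0.22), from 1182 to 2037 CPM over the controls to 2369 to 3323 CPM over the treated libraries. Mfge8, a bridge between dead cells and phagocytes, was at 33.1, 11.8, 16.4, 15.4 and 25.9 CPM in controls and 6.57, 7.75, 8.93, 8.73 and 10.3 CPM after treatment, with a log2 fold change of -1.28 (SE 0.29), and -1.02 at equal collagen level. Hk3, a hexokinase of myeloid cells, was the called gene of 22 in glycolysis and rose by 0.88 (SE 0.22). Among 36 lysosomal genes Neu1, a sialidase, rose by 0.37 (SE 0.10), and Ctsk, a collagen-degrading cathepsin, fell by 2.46 (SE 0.59) and did not hold.

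Factors of the TGF-beta and angiogenesis list fell more often than they rose. Of 31 tested 7 fell and 1 rose, with a median of -0.05 (-0.11 at equal collagen level). Angptl2, a secreted angiopoietin-like protein, was at 79.8, 47, 60.2, 48.7 and 83.9 CPM in controls and 13, 23.7, 27.1, 23.7 and 27.4 CPM after treatment. Control library 4 was again above all treated libraries, and the log2 fold change was -1.48 (SE 0.31, edgeR adjusted p = 0.0356), and -1.22 at equal collagen level. With Cd109 it was the fall of this list that held. Eng, a TGF-beta co-receptor, rose by 0.57 (SE 0.13) and held. The other falls did not hold: Angpt1, a ligand of the receptor Tie2, Sema3c, a guidance factor, and Vegfc, a growth factor of lymphatic vessels, fell (-2.83, SE 0.75, -2.99, SE 0.73, and -2.48, SE 0.64), and had -1.10, -0.93 and -0.43 at equal collagen level. The interval of Angpt1 there ran from -2.84 to 0.63, and its slope on collagen did not pass (edgeR adjusted p = 0.185). Vegfc was at 2.98, 0.969, 2.13, 0.231 and 3.62 CPM in controls and 0.297, 0.906, 0.196, 0.246 and 0.146 CPM after treatment, so that control library 4 lay within the treated range.

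Further falls that held were Adgrl2, an adhesion receptor of the latrophilin type, Emp1, a membrane protein of epithelia, and Mbnl3, a splicing factor. Their log2 fold changes were -1.38 (SE 0.24), -1.11 (SE 0.25) and -0.60 (SE 0.11), and they had -1.02, -0.94 and -0.59 at equal collagen level. Mbnl3 lay between 9.1 and 11 CPM in controls and between 5.93 and 7.92 CPM after treatment. The groups of Adgrl2 were as clearly apart, with 6.05 to 11.5 CPM against 3.09 to 3.7 CPM.

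Matrix genes and several secreted factors fell and did not hold. Of 21 tested fibroblast and matrix genes 12 fell and 0 rose, the median was -2.91 and -0.57 at equal collagen level, and 0 of the 12 held. The list includes Col1a1, Col1a2 and Col3a1, which make up the collagen level, and Col3a1 is among the 12. Their values at equal level, 0.46, 0.37 and -0.78, are therefore no test. The list median at equal level and the count of falls that held include such genes. Col3a1 was at 676, 215, 641, 43.1 and 1118 CPM in controls and 39.4, 178, 27.5, 18.2 and 34.2 CPM after treatment. Sparc, a matrix protein, was at 227, 41.1, 134, 10.8 and 163 CPM against 19.3, 41.4, 9.52, 9.22 and 8.79 CPM. Both genes were highest in control libraries 1, 3 and 5, and treated library 2 was close to control library 2. Their log2 fold changes were -3.18 (SE 0.85, edgeR adjusted p = 0.0456) and -2.71 (SE 0.73, edgeR adjusted p = 0.0458).

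Csf1, the growth factor of macrophages, showed this order too, at 44.7, 9.8, 39.5, 8.73 and 49.9 CPM in controls and 8.7, 12, 6.85, 5.6 and 6.47 CPM after treatment. It fell by 1.95 (SE 0.47, edgeR adjusted p = 0.0397) and had -0.60 at equal collagen level, with an interval from -1.57 to 0.37. The proteases Mmp9 and Mmp11 and the inhibitor Timp1 fell (-3.0, SE 0.77, -2.93, SE 0.72, and -1.53, SE 0.42), and had -0.43, -0.93 and -0.25 at equal collagen level. Mmp9 was at 1.82 CPM in control library 4 and at 7.1 to 66.7 CPM in the other controls, against 2.24 to 7.75 CPM after treatment. Ptges, the prostaglandin E synthase, and Fosl1, an AP-1 subunit, fell (-2.21, SE 0.57, and -2.06, SE 0.49), and had -0.61 and -0.40. The part of fibroblast RNA in these falls was not tested beyond the collagen term.

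**Figure D4:**
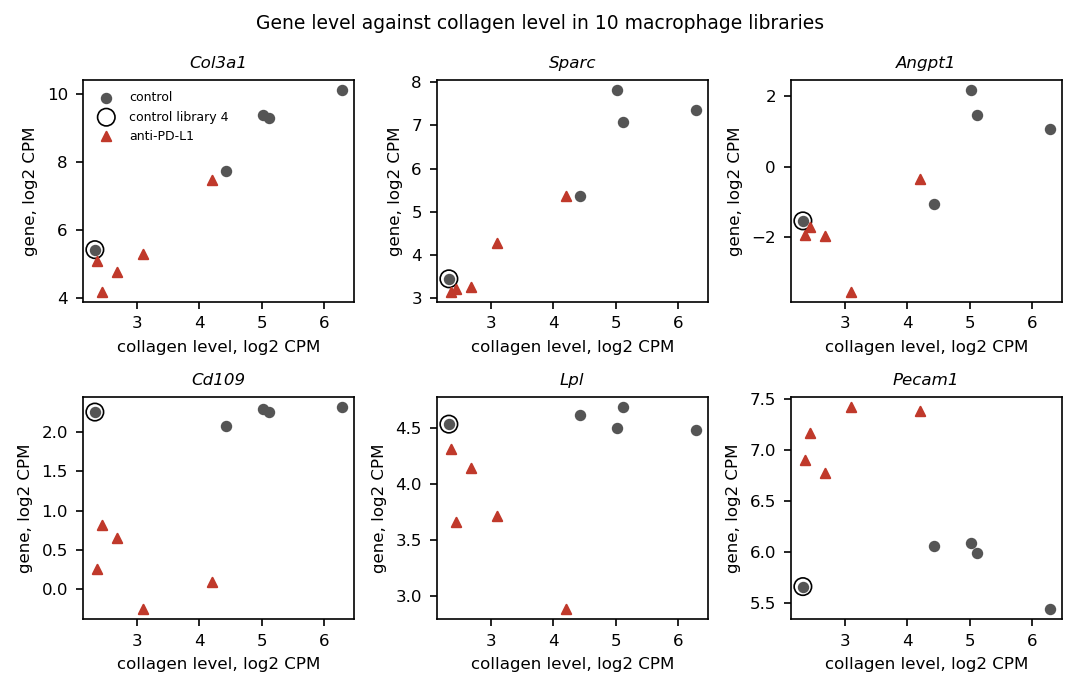
Log2 CPM of 6 genes against the collagen level of the library (log2 CPM) in 5 control (circles) and 5 anti-PD-L1 (triangles) macrophage libraries, with control library 4, at a collagen level of 2.33, ringed. Col3a1, Sparc and Angpt1 are low in that library, whereas Cd109, Lpl and Pecam1 are as in the other controls. Col3a1 is part of the collagen level.

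Cell cycle genes had negative log2 fold changes without passing the test. Of 40 tested members 0 passed in edgeR and 0 had a positive log2 fold change, with a median of -0.52 (-0.57 at equal collagen level). In 11 of the 40 all treated libraries lay below all controls, against 2.83% of all genes tested. Top2a, the topoisomerase of dividing cells, was at 418, 348, 351, 362 and 429 CPM in controls and 214, 218, 281, 148 and 306 CPM after treatment. Its groups did not overlap, but its log2 fold change of -0.71 had an SE of 0.51 and an edgeR adjusted p of 0.438. That SE draws on the spread of all 20 libraries, monocytes included. The macrophage means were 382 ± 38.7 and 233 ± 62.4 CPM (SD). Mki67, the proliferation marker, had -0.51 (SE 0.30). In monocytes Top2a and Mki67 had -2.36 and -1.35 (edgeR adjusted p = 0.00679 and 0.00707). The difference between the cell types did not pass for either (edgeR adjusted p = 0.759 and 0.817). Genes of the respiratory chain (31), the hypoxia response (21), the unfolded protein and heat shock response (23) and cell death (24) had 0 calls, with medians of -0.02, -0.02, -0.01 and 0.19. The macrophage identity list had 1 call in 22, Nr1h3, and a median of 0.22 (0.14 at equal collagen level).

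Of 14 dendritic cell markers 3 fell, Flt3, Zbtb46 and Cacnb3, while 9 had a positive log2 fold change, with a median of 0.11. The summed level was 423 to 538 CPM in controls and 522 to 674 CPM after treatment, of which Bst2 made up 330.2 to 489 CPM and 428 to 575 CPM. Xcr1 and Batf3, the next most abundant, had 1.02 (SE 0.39) and 0.40 (SE 0.14) and did not pass (edgeR adjusted p = 0.117 and 0.0786). Flt3 and Zbtb46 reached at most 0.758 and 1.52 CPM. Of 12 neutrophil markers Csf3r rose and Mmp9 fell, the summed level was 113 to 251 CPM and 154 to 213 CPM, Camp had 0 counts in all 10 libraries, and Ly6g and Ngp stayed under 3 counts. Of 16 monocyte markers 1 rose and Vcan and Ly6c1 fell, 10 had a positive log2 fold change, and the median was 0.37 (0.24 at equal collagen level). Their summed level was 2725 to 5111 CPM in controls and 2404 to 3649 CPM after treatment, of which Fn1, also a fibroblast gene, made up 1173 to 3531 CPM and 867 to 2107 CPM. Of 9 tested epithelial and tumour cell markers Sox9 fell by 3.28 on the log2 scale (SE 0.83) and had -0.99 at equal collagen level, while Krt19, Krt20, Cldn3 and Cldn4 stayed under 3 counts in every library. Pericyte and B cell markers had 0 calls in 4 and 3. Among RNA quality measures, mitochondrial transcripts had a median of -0.36 and ribosomal protein genes of -0.21, with 0 calls in 10 and 30.

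Few genes passed a test of the difference in treatment effect from monocytes of the same groups. Without pairing the libraries, the test of the difference between the cell types called 0 of 15390 genes in edgeR, with 980 (6.37%) at an unadjusted p under 0.05, 7 in DESeq2 and 0 in limma-voom. The monocyte log2 fold changes were 1.12 for Pecam1, 1.29 for Mmp13, 0.87 for Gpr18, -0.70 for Cd109 and -2.25 for Angptl2, each with an adjusted p in edgeR of at most 0.05. For Lpl the monocyte value was 0.17 (edgeR adjusted p = 0.529) and for Ltb4r1 0.20 (edgeR adjusted p = 0.538). The libraries can also be paired, since each macrophage sample number is followed by that of a monocyte library of the same treatment, although the labels do not say that neighbours share a tumour. With these 10 pairs as a block edgeR called 3 of 15390 differences (0.0195%), in Iigp1, Chpf and Samsn1, and none of the 3 genes passed in macrophages. Iigp1, an interferon-induced GTPase, had log2 fold changes of 0.55 in macrophages and 1.32 in monocytes, Chpf, an enzyme of chondroitin synthesis, -0.68 and -2.95, and Samsn1, an adaptor of lymphocytes, 0.06 and 0.68. Their adjusted p-values for the difference in edgeR were 0.00925, 0.0456 and 0.0456 with the block and 0.726, 0.688 and 0.708 without it. Limma-voom with the block called 8 other genes, among them Cd109, with log2 fold changes of -1.92 in macrophages and -0.70 in monocytes (limma adjusted p = 0.0392 for the difference, edgeR 0.0974 with the block and 0.599 without). No difference passed in both tests, and no change is called particular to macrophages.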

How the data were processed

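RNA-seq of 5 anti-PD-L1 and 5 control macrophage libraries was analysed, with 10 monocyte libraries sharing the fit. Per the labels' protocols, libraries were made with a stranded total RNA kit, although the molecule label names polyA RNA. Reads were aligned with GSNAP to GRCm38, per the submitters' processing notes, with the version, annotation, counting tool and strand setting not given in the sources used here. Each deposited file holds a count of uniquely aligned reads and a normalized RPKM for 36528 gene models, per the file headers. The deposited counts were used unchanged for all tests, and the RPKM for levels between genes or cell types. Unique alignment makes counts of gene families (H2, Gbp, Tgtp, Ly6, Fpr, paired receptors) uncertain, and unknown strand handling those of the 46 of 143 named genes whose exons overlap another gene. Entrez numbers were matched to RefSeq symbols for 31049 models (85%), which hold 97.97% of counts.

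Libraries were scaled by TMM after filterByExpr, leaving 15390 genes, and tested with edgeR 4.0.16 (R 4.3.3) by a quasi-likelihood model of 4 group means over 20 libraries. The collagen fit added the collagen level with a slope in each cell type. CPM are TMM-scaled, log2 CPM use a prior count of 2, and p-values were adjusted over all genes tested by Benjamini-Hochberg. Replicates of a group differed far beyond counting noise (lowest chi-square per degree of freedom 22.68). Intervals are at 95%, and floors cover counting error only. DESeq2 1.42.0, limma 3.58.1, other filters, normalizations, covariates and leaving out each library were alternatives. Neighbouring sample numbers in the titles (macrophage, then monocyte, of 1 treatment) were checked for pairing: deviations from the group means correlated in 10 of 10 pairs (r from 0.22 to 0.72). They were therefore also used as a block. Scripts were tested on simulated data.

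The members and lists were chosen with earlier results of these data known. Named genes are up to 3 called members of each list with the smallest p, the 8 highest and 8 lowest separated folds at a mean log2 CPM of at least 2, the 8 smallest p, genes called or held at equal collagen level by smallest p, the 3 most abundant members of each cell or quality list, and 8 always included genes. A few genes within this rule are left unreported. Genes named outside this rule, chosen after their values were seen, were Hmgcs1, Elovl6, Scd1, Azin1, Itgb2, Fpr2, Ltb4r1, Nod1, Pla2g7, Csf1, Vegfc, Sema3c, Angpt1, Timp1, Mki67, Top2a, Trpm2, Ocstamp, Adgre1, Mertk, Apoe, Csf1r, Cd68, Lyz2, Flt3, Zbtb46, Sparc, Iigp1, Chpf, Samsn1, further genes listed for a promoter match and the defining markers of other cells. Promoter motifs were chosen after the results were seen.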

Additional observations from a re-analysis of the deposited data

Results flagged for a closer look

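In 8 of 164 groups of 5 libraries, a library of a named gene stood far from the other 4 (Dixon's criterion), where chance gives about 1 in 20. Treated library 4 was high for 4 genes. On the log2 CPM scale Pdcd1lg2 was at 6.59 there against 3.73 to 4.16, Ly6i, a surface antigen of the Ly6 family, at 6.0 against 3.60 to 4.25, Tarm1 at 4.81 against 3.13 to 3.56, and Inpp5j, an inositol phosphatase, at 4.89 against 4.01 to 4.24. Without that library their log2 fold changes were 1.56, 1.26, 0.98 and 1.02, with edgeR adjusted p-values of 0.0794, 0.0863, 0.0794 and 0.0844. That fit called 14 genes in all, against 715 with every library, so the lost calls are not particular to these 4 genes. Treated library 1 was low for Angptl2, at 3.71 against 4.57 to 4.78, and leaving it out gave a log2 fold change of -1.27 (edgeR adjusted p = 0.0676, in a fit with 35 calls). Control library 1 was low for Socs1, at 3.64 against 4.50 to 4.68 (0.88 without it, edgeR adjusted p = 0.102, in a fit with 19 calls). Control library 5 was low for H2-T23, a nonclassical MHC class I gene, at 7.59 against 8.15 to 8.29 (0.69 without it, edgeR adjusted p = 0.0836, in a fit with 14 calls). Control library 2 was low for Cd109, at 2.07 against 2.25 to 2.31, and leaving it out gave -1.89, which passed (edgeR adjusted p = 0.00154).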

How the results depend on the processing

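For 108 named genes, directions were the same under every alternative run except 1 setting, while the number of calls was not. Since 102 of the 108 were called with all libraries, the kept directions are no test of stability. Against 266 rises and 449 falls, no filter on low counts gave 172 rises, DESeq2 747 and 1131, limma-voom 148 and 43, the robust spread estimate 281 falls, the macrophage libraries alone 794 falls, library weights in limma-voom 149 falls, and limma-voom on the macrophage libraries alone, added after seeing the data, 6 and 6. Of the 266 rises and 449 falls, 265 and 449 were shared with DESeq2 and 134 and 43 with limma-voom. Leaving out 1 library gave 11 to 833 rises and 2 to 1095 falls, with more rises than falls in 10 of 20 fits. Held at equal collagen level were 509 and 173 genes in DESeq2, 148 and 41 in limma-voom, 305 falls in the macrophage libraries alone, and 11 to 516 rises and 2 to 178 falls without 1 library. At equal collagen level DESeq2 called 13 and 2 genes, the macrophage libraries alone 0 and 0, and fits without 1 library 0 to 1 in each direction. The difference between cell types had 7 calls in DESeq2 and 0 to 41 without 1 library. The collagen difference of -1.68 was -2.15 over the fibroblast list (exact permutation p = 0.0317), -1.82 without TMM (exact permutation p = 0.0397) and -2.26 to -1.27 without 1 library. Without the 4 controls above the treated collagen levels, 1 control was left, assumed to vary like the other groups, and 0 and 0 genes passed, which says nothing on stability. There Ptges, Mmp11, Mmp9, Fosl1, Col1a1, Col1a2, Col3a1, Col6a1, Sox9, Vegfc, Sema3c, Timp1, Sparc and Pdgfra turned to 0.24, 0.09, 1.19, 0.35, 1.17, 1.01, 0.47, 0.42, 0.26, 0.61, 0.30, 0.63, 0.72 and 0.20. The causes of these shifts were not tested. The 102 called among them passed in 3 to 20 of the 20 fits without 1 library (median 14). The control group has 1 library of low collagen, which limits the comparison at equal level. With neighbouring sample numbers as a replicate block, added after seeing the data, limma-voom gave 195 rises and 48 falls (held 195 and 46) and 8 differences between cell types, and edgeR 3 differences. The block changed neither count at equal collagen level, 1 in each direction.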

Other observations

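The 3 collagen genes differed in level. On the deposited scale per length, Col3a1 lay between 3.16 and 193 nRPKM over the macrophage libraries, Col1a1 between 0.322 and 4.88 and Col1a2 between 0.333 and 3.18, and in monocytes between 4.6 and 312, 0.368 and 5.58, and 0.404 and 4.43. Cspg4, which encodes the proteoglycan NG2, did not follow collagen: it was at 8.66, 8.52, 11.3, 17.8 and 14.1 CPM in controls and 2.76, 3.35, 3.87, 5.01 and 6.24 CPM after treatment, highest in control library 4. All treated libraries were lower, with a log2 fold change of -1.51 (SE 0.57) that did not pass in edgeR (adjusted p = 0.11), and -1.80 at equal collagen level. The SE draws on the spread of all 20 libraries, and in monocytes Cspg4 had -2.97 (edgeR adjusted p = 0.00532). Cdh1, which encodes E-cadherin, was at 26, 41.7, 54.9, 53.8 and 47.8 CPM in controls and 56.4, 57.2, 80.1, 109.9 and 77.2 CPM after treatment, again without overlap and without passing (0.76, SE 0.26, edgeR adjusted p = 0.0806). Flt1, a VEGF receptor, had 37.4 CPM in treated library 4, the library highest in Pdcd1lg2, against 6.87 to 10.4 CPM in the other treated libraries and 2.51 to 11.7 CPM in controls. CYTB, a mitochondrial transcript, was at 6414 CPM in control library 1 and at 1614 to 3044 CPM in the other 9 libraries.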
